A study of Homo sapiens with 6 samples.

Results

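The effect of an HNF4A siRNA was examined in HepG2 cells that had been in TGF-beta for 1.5 h, by setting the array labelled siHNF4A at that time against the array labelled siControl, 2 of the 6 arrays of the series. HepG2 is a human hepatoblastoma line that keeps much of the hepatocyte programme. An siRNA is a small duplex RNA that directs cleavage of the transcript it pairs with, and the control siRNA is meant to leave that transcript alone. Both arrays held RNA of cells given TGF-beta at 3 ng/ml for 1.5 h, and the other 4 arrays covered both siRNAs at 0 and 24 h. Each siRNA and time had 1 array, and whether the cultures of an siRNA shared a transfection is not given in the labels. Cells kept for 1.5 h without TGF-beta are not analysed here, so the comparison shows the siRNA difference within TGF-beta and not the effect of TGF-beta itself.

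Values are MAS5 signals, linear intensities that the authors scaled to a common mean. Each gene was read through 1 probe set, which among those with a single gene symbol had the highest signal when averaged over the 6 arrays. A signal under 12.9, the median of all signals, was raised to that floor before log2 was taken, and a difference is siHNF4A minus siControl on the log2 scale, where 1 is a 2-fold difference. Of 19775 genes, 11921 had a mean signal above the floor and were tested with limma, a linear model that borrows the spread across genes. With 1 array a side, the 1.5 h pair has no replicate of its own. The spread came from how far the siRNA difference disagreed between 0 and 24 h, so the standard errors (SE) and adjusted p-values below assume that the 1.5 h arrays vary as those do. They do not measure a spread between cultures. In RNA from whole cultures, fewer cells and less RNA per cell cannot be told apart.

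The targeted transcript is not analysed here, so the depth of the knockdown at 1.5 h has no value. The log2 signals of the 2 arrays correlated at 0.976 (range over all pairs of arrays 0.944 to 0.986), their medians were 13.3 (siControl) and 12.4 (siHNF4A), and 50.7% and 49.1% of probe sets lay above the floor. The GAPDH 3' to 5' signal ratio, which rises when RNA is degraded, was 0.964 and 0.977, and that of ACTB 1.197 and 1.26. The control probe set for the 5' end of ribosomal RNA differed more, at 69.8 in siControl and 736.5 in siHNF4A, and it was 8599.7 on the siControl 0 h array, which enters the spread. Its part in the results was not tested. All 12 hepatocyte and hepatoblastoma markers lay above the floor, with a summed signal of 73269 and 74647 on the 2 arrays. Of 10 blood cell markers 6 had a probe set. Their sum was 2380 in siControl and 3053 in siHNF4A, and it came mostly from LYZ, at 2317 and 2996, while the leukocyte marker PTPRC was at or under the floor on every array. Among 8 endothelial and 10 fibroblast or stellate markers, VWF, CDH5, KDR, EMCN, COL3A1, FAP and LRAT were at or under the floor on every array, and the sums at 1.5 h were at most 179. PECAM1, ESAM and RGS5 were above the floor on every array, at 81.8, 60.7 and 18.2 in siControl at 1.5 h. In siHNF4A they were at 57.5, 68.3 and 21.4. The remaining markers were above it on some arrays, among them PDGFRB, at 31.8 in siControl and 12.7 in siHNF4A.

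HNF4A is a nuclear receptor that binds DNA as a homodimer and keeps the genes of the differentiated hepatocyte on, among them those for apolipoproteins, clotting factors, bile acid and drug handling, and lipid storage. TGF-beta binds a pair of receptor kinases, which phosphorylate Smad proteins that move to the nucleus and switch on feedback genes such as SMAD7 and SKIL within the first hours.

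To show what HNF4A could read near these genes, promoters were searched for CAAAGTCCA, a form of the site that HNF4A binds, on both strands (TGGACTTTG is its reverse complement). The windows are those of RefSeq, GRCh38.p14, from 250 bases before a gene's start site to 50 after it. The site was found in 52 of 14099 windows (0.369%), and in 49 of the 9736 tested genes with a window (0.503%). Among the genes that fell at 1.5 h it was in 4 of 61 with a window (6.56%), namely CIDEB, LBX2-AS1, PIPOX and SLCO2B1, and among those that rose in 1 of 92 (1.09%), HMGCS1. Among genes at least 2-fold apart it was in 5 of 292 lower ones (1.71%) and 1 of 148 higher ones (0.676%). The related letters CAAAGGTCA (reverse complement TGACCTTTG) were in 38 tested genes (0.39%) and in none of the genes that rose or fell. The sequences of 3 liver genes that fell and of the 1 gene that rose are shown 5' to 3' on the gene's own strand, with the site in capitals.
SLCO2B1: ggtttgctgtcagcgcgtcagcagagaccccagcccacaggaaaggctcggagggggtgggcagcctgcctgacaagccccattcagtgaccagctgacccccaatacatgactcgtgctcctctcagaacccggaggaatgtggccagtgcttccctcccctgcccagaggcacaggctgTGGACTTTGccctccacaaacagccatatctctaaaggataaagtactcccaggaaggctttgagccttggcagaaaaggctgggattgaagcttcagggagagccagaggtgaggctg
CIDEB: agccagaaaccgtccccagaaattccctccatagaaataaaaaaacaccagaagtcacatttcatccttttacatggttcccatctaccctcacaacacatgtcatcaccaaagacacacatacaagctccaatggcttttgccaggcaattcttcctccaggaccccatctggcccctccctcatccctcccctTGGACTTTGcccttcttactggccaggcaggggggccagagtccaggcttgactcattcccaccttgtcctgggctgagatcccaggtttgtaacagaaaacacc
PIPOX: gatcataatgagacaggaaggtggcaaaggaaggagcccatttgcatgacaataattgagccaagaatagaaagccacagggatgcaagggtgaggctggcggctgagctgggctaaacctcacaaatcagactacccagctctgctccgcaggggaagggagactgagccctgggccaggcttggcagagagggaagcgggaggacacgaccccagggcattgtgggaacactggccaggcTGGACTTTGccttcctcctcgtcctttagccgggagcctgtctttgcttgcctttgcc
HMGCS1: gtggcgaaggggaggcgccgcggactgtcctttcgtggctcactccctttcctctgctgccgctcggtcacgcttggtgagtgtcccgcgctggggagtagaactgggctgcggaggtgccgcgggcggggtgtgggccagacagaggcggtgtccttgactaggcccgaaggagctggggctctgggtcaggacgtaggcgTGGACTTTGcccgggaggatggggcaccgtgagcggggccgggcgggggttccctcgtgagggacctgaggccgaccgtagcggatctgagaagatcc
The windows lie at chr11:75159582-75159881 (plus strand, SLCO2B1), chr14:24307928-24308227 (minus, CIDEB), chr17:29042891-29043190 (plus, PIPOX) and chr5:43313132-43313431 (minus, HMGCS1). In each the site stands in the antisense orientation and begins 69, 55, 8 and 48 bases before the start site. Over the 49 tested genes with the site, whichever way they moved, 37 lay below 0 at 1.5 h, with a median difference of -0.28, against 5320 of 9736 genes with a window and a median of -0.05. At 0 h 31 and at 24 h 32 of the 49 were below 0. Of the 38 genes with the related letters 18 lay below 0 at 1.5 h, and their median was 0.00. A match is a description of letters in the window and shows no binding.

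At 1.5 h, 180 of the 11921 genes tested passed limma (1.51%), of which 101 rose in siHNF4A (0.847%) and 79 fell (0.663%). The genes that fell included single genes of fatty acid hydroxylation (CYP4F3), glutathione conjugation (GSTA1) and thyroid hormone activation (DIO1). They also included 2 genes of bile acid and organic anion transport, and genes for storage of neutral lipid, of which another, PLIN2, rose. The genes that rose included the secreted signals IL11 and CXCL8, the sterol synthesis enzyme HMGCS1, and genes of adhesion. Differences of genes that passed ranged in size from 0.62 upward with a median SE of 0.21. The number that passed depended on the fit: it was 0 when the spread was not modelled on signal level, with 1502 genes at an unadjusted p under 0.05, and 0 when the mean of all a gene's probe sets was used, with 1640. In the fit reported, 1905 genes were at an unadjusted p under 0.05 (596 by chance). Scaling arrays to the median moved the split from 56.1% to 72.6% higher.

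A count by size alone leaned the other way. Between the 2 arrays 573 genes differed at least 2-fold (4.81%), 184 higher in siHNF4A (1.54%) and 389 lower (3.26%). The share that was higher was 32.1%, and 45.4% and 48.5% after quantile normalization and after median scaling. Of the 573, 441 did not pass limma, and 127 had 1 signal at or under the floor. Many lay among dim genes. Where the brighter of the 2 signals was under 50, 69 genes were higher and 175 lower at 2-fold, and 1 passed limma. Where it was 1000 or more, 11 were higher and 6 lower, and 33 rose and 16 fell by limma.

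**Figure D1:**
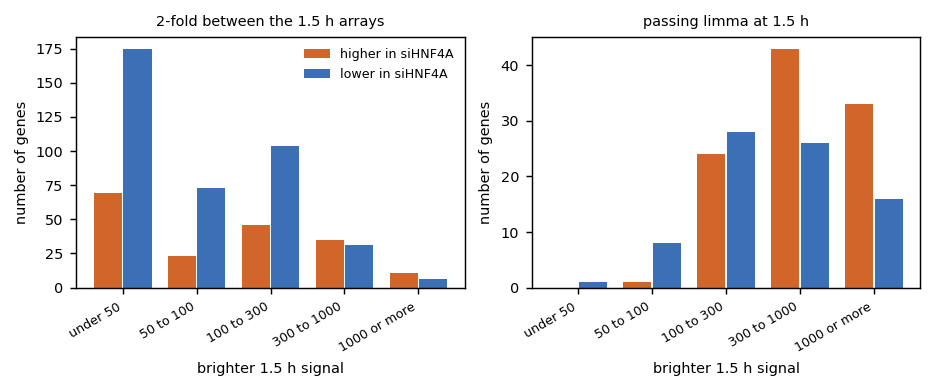
Number of genes at least 2-fold apart between the 1.5 h arrays (left) and passing limma at 1.5 h (right), by the brighter of the 2 signals, orange for higher in siHNF4A and blue for lower. Under 50 there were 175 genes lower and 69 higher at 2-fold and 1 that passed, and most genes that passed were above 100.

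Among transporters, 2 genes for bile acids and organic anions fell. SLC51B encodes the small subunit of the basolateral bile acid exporter, and its signal was 195, 213 and 99.3 at 0, 1.5 and 24 h in siControl and 66.6, 38 and 34.2 in siHNF4A. All siHNF4A values lay under all siControl values, and at 1.5 h SLC51B fell by 2.49 (SE 0.30, limma adjusted p = 0.00561). Its partner SLC51A was dim, at 31.7 in siControl and under the floor at 7.2 in siHNF4A, a difference at least as large as -1.30 that did not pass (limma adjusted p = 0.273). SLCO2B1, an uptake carrier for organic anions and statins, read 101, 109 and 80.0 in siControl and 52.9, 29.3 and 21.5 in siHNF4A and fell by 1.90 (SE 0.40, limma adjusted p = 0.0459). Its other probe sets gave -1.85 and, with siHNF4A under the floor, a difference at least as large as -2.29. SLC6A4, the serotonin transporter, fell from 105 to 19.7, a difference of -2.41 (SE 0.41, limma adjusted p = 0.0169). Of the 27 liver transporters tested, 2 fell, none rose and 5 were 2-fold lower, with a median of -0.25 (all genes tested -0.05). The shares over all genes were 0.663%, 0.847% and 3.26%.

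Single enzymes of fatty acid, drug and hormone metabolism fell. CYP4F3, which hydroxylates leukotriene B4 and fatty acids, stood between 128 and 150 in siControl and at 21.9, 34.7 and 10.6 in siHNF4A. It fell by 2.01 (SE 0.36, limma adjusted p = 0.023), beside single-array differences of -2.78 at 0 h and, with siHNF4A under the floor, at least as large as -3.31 at 24 h. The difference between times did not pass (limma adjusted p = 0.625). CYP19A1, the aromatase that makes oestrogens, fell from 65.2 to 14.6, a signal just above the floor (-2.16, SE 0.42, limma adjusted p = 0.0347). CYP4F12 was 1.36 lower and did not pass (limma adjusted p = 0.0524). Over the 19 P450 and drug-response genes tested, 2 fell and none rose (0.663% and 0.847% of all genes), and 16 lay below 0 (6521 of 11921). The median was -0.59, beside -0.29 at 0 h and -0.14 at 24 h. It became -0.09 with no filter on dim genes (29 genes) and lay between -0.66 and -0.41 under the other processing alternatives. GSTA1, a glutathione transferase of liver, fell by 1.94 (SE 0.35, limma adjusted p = 0.0229), from 192 to 50.3, and was the 1 of 25 conjugating enzymes that passed. DIO1, which converts thyroxine to the active thyroid hormone, read 431, 382 and 287 in siControl and 110, 107 and 33.2 in siHNF4A. The arms did not overlap, and DIO1 fell by 1.83 at 1.5 h (SE 0.35, limma adjusted p = 0.0286).

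Lipid storage showed both directions. CIDEC, a lipid droplet protein that promotes droplet fusion, read 179, 185 and 123 in siControl and 56.7, 56.0 and 44.7 in siHNF4A, and fell by 1.72 (SE 0.29, limma adjusted p = 0.0179). CIDEB, its liver relative that also takes part in lipoprotein lipidation, fell by 1.39 (SE 0.30, limma adjusted p = 0.0496), from 738 to 282. DGAT1, which makes triglyceride, fell by 1.27 (SE 0.24, limma adjusted p = 0.027), from 361 to 150. SOAT2, the enzyme that esterifies cholesterol for lipoproteins, fell from 279 to 97 (-1.52, SE 0.31, limma adjusted p = 0.0405). GPD1, which supplies the glycerol 3-phosphate backbone, was at 79.1 in siControl and at 0.9, under the floor, in siHNF4A, so it fell, with a difference at least as large as -2.62 (limma adjusted p = 0.0154). PLIN2, the coat protein found on lipid droplets of most cells, rose instead. It read 2340, 2187 and 4004 in siControl and 3681, 4324 and 8838 in siHNF4A, and was 0.98 higher at 1.5 h (SE 0.16, limma adjusted p = 0.0169). In the list of 30 lipid droplet, uptake and binding genes 3 fell and 1 rose, with 5 lower at 2-fold and a median of -0.33. The shares over all genes tested were 0.663%, 0.847% and 3.26%, with a median of -0.05. FABP1, the liver fatty acid binding protein, was at 936 and 453 and did not pass (-1.05, SE 0.32, limma adjusted p = 0.139).

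Of 30 fatty acid oxidation genes 1 passed (1.51% of all genes tested), with 23 below 0 (6521 of 11921) and a median of -0.35 (all genes -0.05). That was CRAT, carnitine acetyltransferase, which fell by 1.31 (SE 0.26, limma adjusted p = 0.0401), from 197 to 79.3. PIPOX, a peroxisomal oxidase of sarcosine and pipecolate whose promoter is shown above, fell by 1.07 (SE 0.19, limma adjusted p = 0.0193), from 692 to 329. In sterol and fatty acid synthesis 1 of 28 rose and 1 fell. FADS2, a desaturase of polyunsaturated fatty acids, read 80.8, 103 and 87.2 in siControl and 96.6, 32.6 and 86.5 in siHNF4A, and fell by 1.66 at 1.5 h (SE 0.31, limma adjusted p = 0.0286). At 0 h it was the higher in siHNF4A, and at 24 h the arms were nearly equal. BHMT2, a methyltransferase of the methionine cycle, rose by 1.45 (SE 0.25, limma adjusted p = 0.0181), from 101 to 276, the 1 of 42 amino acid genes that passed. HK2, the hexokinase of proliferating cells, rose from 398 to 835, by 1.07 (SE 0.17, limma adjusted p = 0.015), and its other probe sets gave 0.45 and -0.30. It was the 1 of 33 glucose genes tested that passed. HKDC1, a hexokinase outside that list, passed too and fell by 1.66, with other probe sets at -1.72 to -0.73. PKLR and AGXT, the liver pyruvate kinase and alanine-glyoxylate aminotransferase, were under the floor in siHNF4A, with differences at least as large as -2.0 and -2.02, and neither passed (limma adjusted p = 0.0623 and 0.0599).

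**Figure D2:**
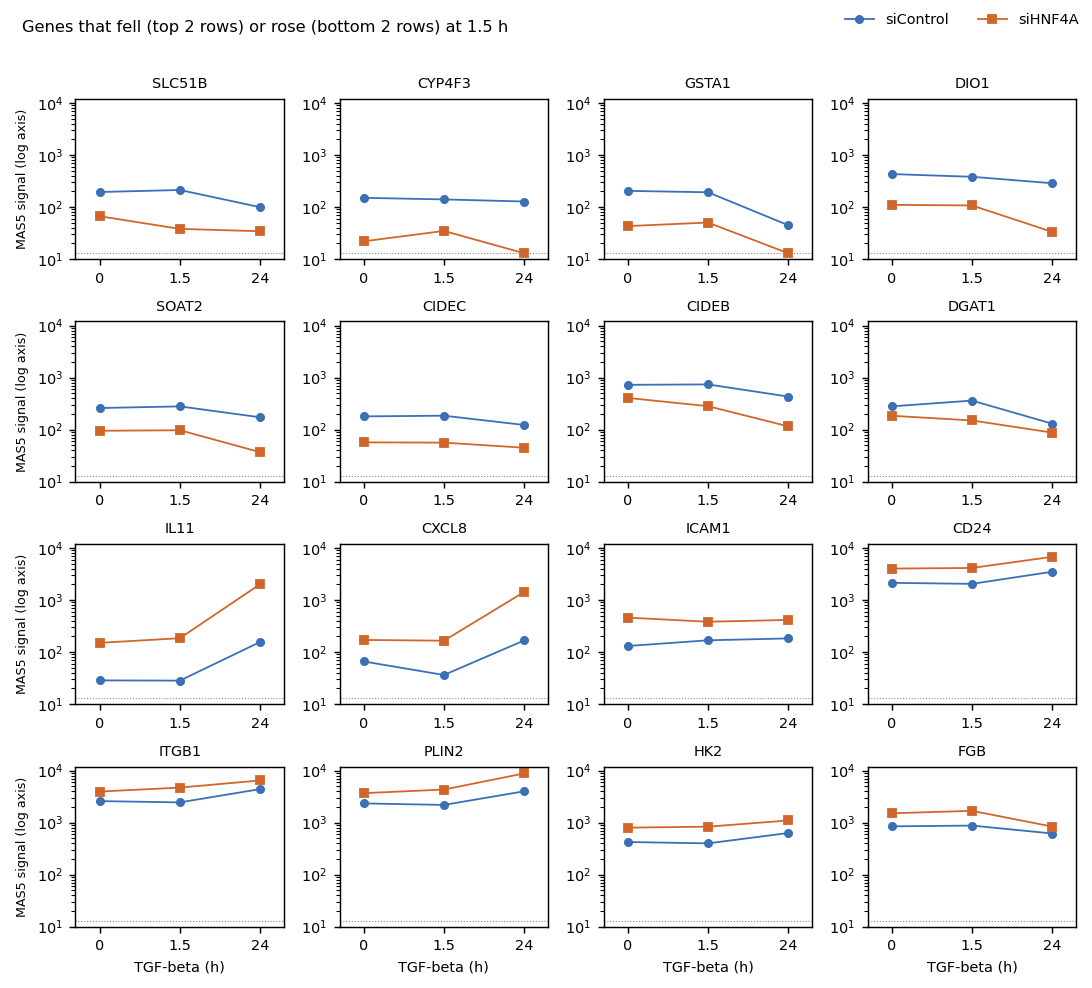
MAS5 signal (log axis) of 16 genes that passed limma at 1.5 h, at 0, 1.5 and 24 h of TGF-beta, with siControl as circles and siHNF4A as squares and 1 array per point. Times are evenly spaced and not to scale, the dotted line is the floor of 12.9, and signals under it are drawn on it. In the 8 upper panels siHNF4A lies under siControl at every time, and in the 8 lower panels it is the higher arm.

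Among the secreted and plasma proteins of the liver, many of which are classic HNF4A targets, single genes passed at this time. The shares to set beside them are those of all genes tested: 1.51% passed, 0.847% rose, 0.663% fell and 3.26% were 2-fold lower. Of 34 textbook HNF4A targets tested, CYP4F3 and CIDEC fell, none rose and 5 were 2-fold lower, though 26 lay below 0, against 6521 of 11921 over all genes tested, and the 1.5 h median of -0.33 was close to those at 0 h (-0.33) and 24 h (-0.32). APOC3, the apolipoprotein that slows triglyceride clearance, was at 998 in siControl and 484 in siHNF4A and did not pass (-1.04, SE 0.24, limma adjusted p = 0.0623). APOB, APOA1 and APOA2 differed by 0.03, -0.08 and 0.09. SERPINC1, antithrombin, was at 540 and 284 (-0.93, limma adjusted p = 0.0766), and F7, coagulation factor VII, at 118 and 65.6 (-0.84, limma adjusted p = 0.218). FGB, the fibrinogen beta chain, rose, at 847, 877 and 617 in siControl and 1511, 1684 and 837 in siHNF4A, by 0.94 at 1.5 h (SE 0.18, limma adjusted p = 0.0275). It was the 1 of 23 coagulation genes that passed. Among 28 plasma and acute-phase proteins none passed. Among 18 complement genes 1 did: CD59, the membrane inhibitor of complement, fell by 1.05 (SE 0.19, limma adjusted p = 0.0254), from 1110 to 537, and its 4 other probe sets differed by -0.68 to -0.92. ALB was at 8178 and 9203 (0.17, limma adjusted p = 0.511) and TTR at 967 and 748 (-0.37, limma adjusted p = 0.36).

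Other genes with the lowest differences had no single role. IL22RA1, the subunit that gives hepatocytes their response to interleukin 22, fell from 75.5 to 13.2 (-2.52, SE 0.40, limma adjusted p = 0.0153), and the second value is close to the floor. LMNB2, a lamin of the nuclear envelope, fell by 2.36 (SE 0.28, limma adjusted p = 0.00535), from 255 to 49.6. RNH1, the cytosolic ribonuclease inhibitor, fell by 2.25 (SE 0.25, limma adjusted p = 0.00535), from 537 to 113, while its other probe sets, both near or under the floor, gave -0.11 and -0.03. RNF19B, GPR157, UPK3A and EPHA1 fell, with differences of -2.0, -1.94, -1.94 and -1.92 (limma adjusted p = 0.0169, 0.0101, 0.0401 and 0.0484). They encode a ubiquitin ligase, a receptor of the G protein-coupled class, a uroplakin and an ephrin receptor. MINDY1, a deubiquitinase, fell by 2.11 (SE 0.32, limma adjusted p = 0.0112), but its other probe set differed by -0.02. H2AX, the histone variant phosphorylated at DNA breaks, read 1237, 1507 and 586 in siControl and 736, 476 and 245 in siHNF4A. It fell by 1.66 (SE 0.20, limma adjusted p = 0.00561), and its other probe sets gave -1.80 and -0.24. Of the 10 histone genes tested H2AX was the 1 that passed, beside 1.51% of all genes tested. Among those 10, 5 lay above 0 and 5 below, with a median of -0.02, and 21 listed ones were not tested. SRPRA, a subunit of the receptor that docks ribosomes at the endoplasmic reticulum, fell by 1.25 (SE 0.18, limma adjusted p = 0.0101). The brightest genes that fell were CAPRIN1, SRSF11, GPX3, LGALS3 and MGAT2, with differences of -0.93, -0.85, -0.86, -0.82 and -0.84. For CAPRIN1 and SRSF11, an RNA granule protein and a splicing factor, several dimmer probe sets gave differences above 0, up to 1.00 and 0.75.

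Among genes that rose, IL11, a cytokine of the IL6 family, had the largest difference. It read 28.5, 28.2 and 157 in siControl and 150, 185 and 2027 in siHNF4A, and it rose by 2.71 at 1.5 h (SE 0.38, limma adjusted p = 0.00764). The single-array differences were 2.40 at 0 h and 3.70 at 24 h. CXCL8, the neutrophil chemokine interleukin 8, read 66.0, 36.2 and 168 in siControl and 171, 165 and 1435 in siHNF4A, and rose by 2.19 (SE 0.44, limma adjusted p = 0.0402). ICAM1, the endothelial and epithelial ligand of leukocyte integrins, rose by 1.19 (SE 0.25, limma adjusted p = 0.0474), from 168 to 383. These were the 3 of 33 genes of the NF-kB, chemokine and IL6-family list that passed, and 4 of the 33 were 2-fold higher and 3 lower, with a median of 0.14. Among all genes tested 0.847% rose, 1.54% were 2-fold higher and 3.26% lower. The chemokine CX3CL1, which is not in that list, passed and fell by 1.33, and its other probe set gave -1.95. For IL11 and CXCL8 the level within an arm at 1.5 h was close to that at 0 h, apart from the lower CXCL8 in siControl.

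Single genes of adhesion, growth control and stress also rose. CD24, a surface glycoprotein of hepatic progenitors, read 2147, 2052 and 3512 in siControl and 4038, 4152 and 6802 in siHNF4A and rose by 1.02 (SE 0.12, limma adjusted p = 0.00563), and its 5 other probe sets gave 0.91 to 1.19. ITGB1, the common beta subunit of matrix-binding integrins, rose by 0.95 (SE 0.12, limma adjusted p = 0.00572), from 2448 to 4714, and ITGAV, an alpha partner, by 0.64 (SE 0.13, limma adjusted p = 0.0394). THBS1, a matrix glycoprotein that activates latent TGF-beta, rose from 478 to 890, by 0.90 (SE 0.16, limma adjusted p = 0.0229). TP53INP1, a p53 target, rose by 1.69 (SE 0.22, limma adjusted p = 0.00563) and CDKN1B, the p27 inhibitor of cyclin-dependent kinases, by 0.79 (SE 0.15, limma adjusted p = 0.0311). Of the 35 genes of endoplasmic reticulum and amino acid stress, MTHFD2 and HERPUD1 rose, by 0.87 and 0.70 (limma adjusted p = 0.0169 and 0.0432). In this list 24 lay above 0 with a median of 0.15, against 5255 of 11921 and -0.05 over all genes tested. The share of all genes that rose was 0.847%. XBP1, a transcription factor of that response, was at 785 and 1606 and did not pass (1.03, SE 0.25, limma adjusted p = 0.0776).

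The other large rises were in genes of mixed function that were higher in siHNF4A at all 3 times. AMMECR1, C21orf91, PHTF2 and TULP3 rose by 2.60, 2.33, 2.31 and 2.13 (limma adjusted p = 0.00563, 0.00535, 0.00535 and 0.0121). Their other probe sets varied, at 2.78 and 0.05 for AMMECR1, 0.47 for C21orf91, 0.30 to 2.32 for PHTF2 and 0.89 for TULP3. AIDA, an axin-binding protein, read 330, 304 and 538 in siControl and 1278, 1301 and 1314 in siHNF4A, a rise of 2.1 (SE 0.22, limma adjusted p = 0.00535). SLC4A7, a sodium bicarbonate carrier, and POLR3G, an RNA polymerase III subunit, rose by 2.01 and 1.86 (limma adjusted p = 0.00535 and 0.0432). Other SLC4A7 probe sets above the floor gave 1.58 and 1.61. Without probe sets ending in _x_at or _s_at, SLC4A7 lay at or under the floor on both arrays, so its difference was 0 and did not pass. FAM3C, a secreted protein, rose from 149 to 528, by 1.82 (SE 0.21, limma adjusted p = 0.00535). The brightest genes that rose were SLC38A2, SSR1, ITGB1, TOMM20 and PLIN2, and SLC38A2, a neutral amino acid carrier, rose by 0.64 (SE 0.12, limma adjusted p = 0.0307), from 3586 to 5569. Without the suffixed probe sets SSR1, a subunit of the translocon-associated complex, turned from 0.96 to -0.24.

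Of the direct targets of TGF-beta signalling, read on the same 2 arrays, 1 passed. SMAD7, the inhibitory Smad that TGF-beta induces, was at 710 in siControl and 693 in siHNF4A (-0.04, SE 0.20, limma adjusted p = 0.961). SKIL, a Smad co-repressor, was at 696 and 738 (0.08, SE 0.17, limma adjusted p = 0.858), ID1 at 7703 and 9462 (0.30, SE 0.13, limma adjusted p = 0.308), and JUNB at 347 and 355 (0.04, SE 0.28, limma adjusted p = 0.979). The JUNB differences were 0.75 at 0 h and 1.36 at 24 h. MYC was at 857 and 1206 (0.49, SE 0.21, limma adjusted p = 0.279). A p that misses the threshold does not show that these levels were equal. Over 41 TGF-beta feedback and direct targets THBS1 rose, none fell, and the median of 0.14 compares with 0.23 at 0 h and 0.50 at 24 h. MIXL1, a Smad target of early mesendoderm, was at 129 and 43.9 and did not pass (-1.55, SE 0.39, limma adjusted p = 0.082). None of 28 immediate-early and AP-1 genes passed, with 19 above 0 (5255 of 11921 over all genes tested). Their median was 0.15, against 0.23 at 0 h and 0.73 at 24 h. None of the 19 receptors and Smads passed. With 1.51% of all genes tested passing, lists of these sizes would hold few or none at that share.

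No gene of the antiviral and proliferation lists passed on the low side, where 0.663% of all genes tested fell and 3.26% were 2-fold lower. Of 39 interferon-response genes none passed, 28 lay below 0 (6521 of 11921 over all genes), 6 were 2-fold lower and the median was -0.29. IFIT1, OAS1 and MX1, all induced by interferon, were at 74.2 and 23.3, 79.1 and 28.8, and 43.9 and 16.8 (limma adjusted p = 0.0968, 0.0648 and 0.215). Of 53 mitosis genes 43 lay below 0, with a median of -0.27, but the 1 that passed was ECT2, an exchange factor of cytokinesis, which rose by 0.93 (SE 0.20, limma adjusted p = 0.0496). MKI67, the proliferation marker, was at 414 and 256 (-0.70, limma adjusted p = 0.194) and MCM7, a subunit of the replicative helicase, at 1145 and 608 (-0.91, limma adjusted p = 0.0553). None of 46 replication genes, 24 NRF2 targets, 22 chaperones, 42 respiratory chain subunits, 35 ribosome biogenesis genes, 22 liver-enriched transcription factors, 21 nuclear receptors, 22 iron and metal genes, 26 alcohol and aldehyde enzymes or 16 housekeeping genes passed. With 1.51% of all genes tested passing, a count of 0 in a list of this size is close to that share. The lists share some members.

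Regulators and matrix genes with sizeable differences also failed to pass. Among nuclear receptors, RORA and NR1D2, both of the circadian clock, were at 43.2 and 119 and at 37.7 and 88.2, differences of 1.46 and 1.23 (limma adjusted p = 0.0822 and 0.0848), and both were higher in siHNF4A at all 3 times. KLF4, a zinc finger factor, was at 27.6 and 72 (1.38, limma adjusted p = 0.089). DUSP1, a phosphatase that turns off MAP kinases, was at 457 and 788 (0.78, SE 0.35, limma adjusted p = 0.307), after 271 and 430 at 0 h, so it stood higher at 1.5 h than at 0 h in both arms. CDKN2B, the p15 inhibitor that TGF-beta induces, was at 32.1 and 55.2 (0.78, limma adjusted p = 0.256). LOX, which cross-links collagen, was at 258 and 135 (-0.94, limma adjusted p = 0.0683) and lower in siHNF4A at 0 h and 24 h too. GATA4, a factor of the early liver, was at 139 and 76.7 (-0.86, limma adjusted p = 0.247). INSIG2, which holds back sterol synthesis, was at 320 and 643 (1.01, limma adjusted p = 0.0538), and ELOVL6, a fatty acid elongase, at 187 and 328 (0.81, limma adjusted p = 0.125).

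**Figure D3:**
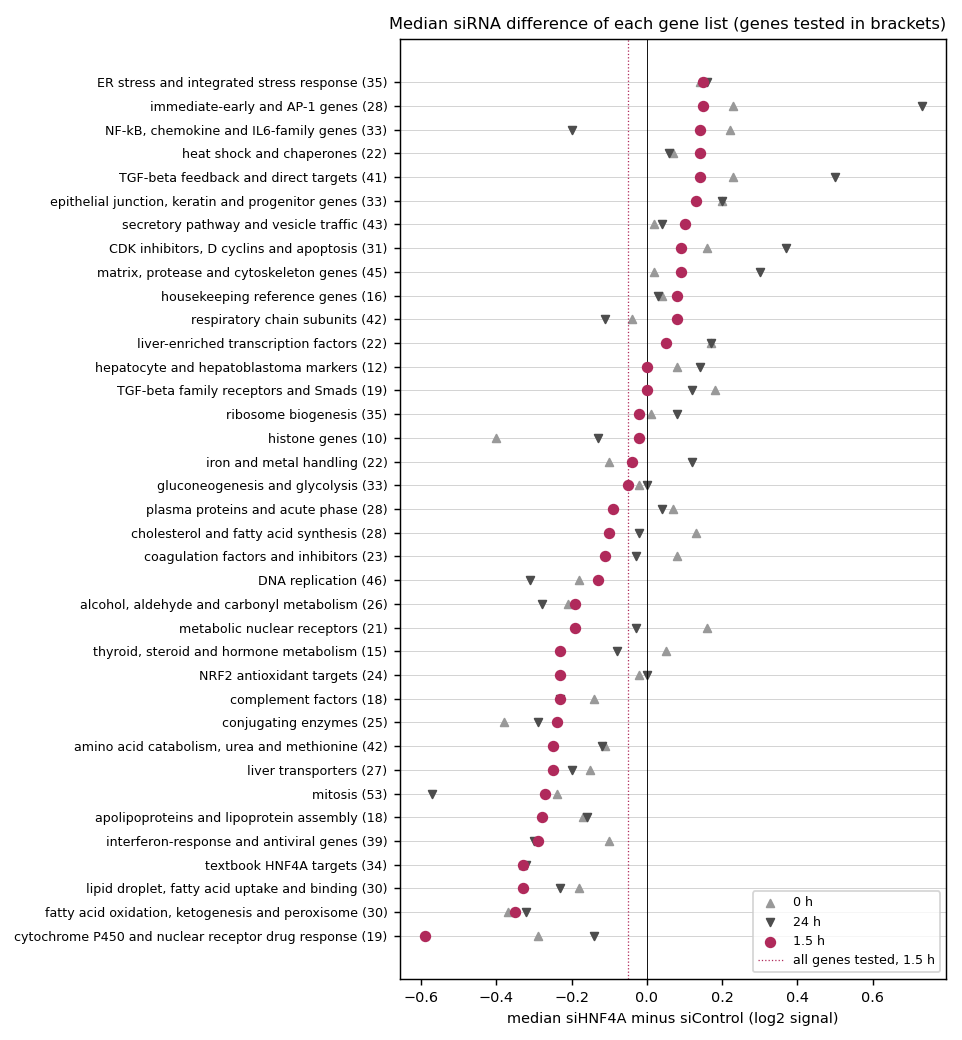
Median siHNF4A minus siControl difference (log2 signal) of each gene list at 1.5 h (circles), 0 h and 24 h (triangles), with the number of genes tested in brackets and the median of all genes at 1.5 h as the dotted line. P450 and drug-response genes had the lowest median at 1.5 h in this fit (-0.59, and -0.09 with no filter on dim genes), and immediate-early genes lay at 0.15 at 1.5 h and 0.73 at 24 h.

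The arrays at 0 and 24 h are not shared with the 1.5 h pair. They give the siRNA difference in 2 other conditions, without TGF-beta and after 24 h of it, and are not replicates of that pair. Across all tested genes the 1.5 h difference correlated at 0.32 with that at 0 h and 0.37 with that at 24 h (Pearson over 11921 genes, which are not independent), and 0 and 24 h correlated at 0.40 with each other. Of the 573 genes that were 2-fold apart at 1.5 h, 348 (60.7%) had the same sign at both other times, against 41.8% of all genes with a difference at 1.5 h. For the 184 higher ones it was 132 (71.7%), and for the 389 lower ones 216 (55.5%). A 2-fold difference at both other times was reached by 22 of the higher and 43 of the lower ones. Such a difference was found at 0 h in 369 genes (3.1%), 175 higher (1.47%) and 194 lower (1.63%), and at 24 h in 630 (5.28%), 266 higher (2.23%) and 364 lower (3.05%). Of the 180 genes that passed limma 164 (91.1%) had the same sign at both times, and here 0 and 24 h also set the spread, which favours genes that agree between them. The 101 that rose had a median difference of 1.19 at 1.5 h, against 0.80 at 0 h and 0.69 at 24 h. For the 79 that fell the medians were -1.41, -0.84 and -0.91. The larger medians at 1.5 h are from the time at which the genes were chosen.

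**Figure D4:**
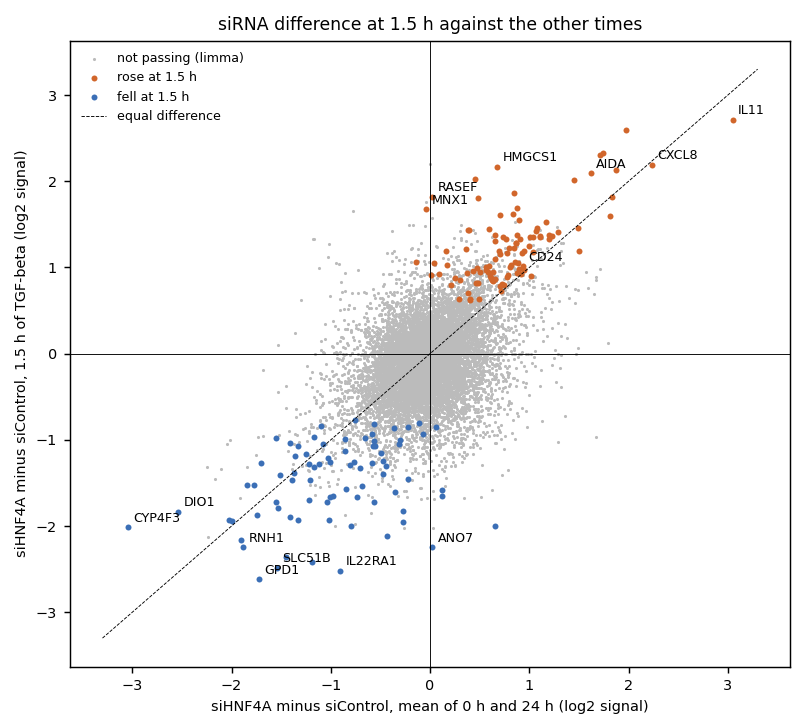
Each point is 1 of 11921 genes, with the siHNF4A minus siControl difference at 1.5 h (vertical axis, log2) against the mean of the differences at 0 and 24 h (horizontal axis, log2). Genes that rose are orange, genes that fell blue, and the dashed line marks equal differences; IL11, CYP4F3 and DIO1 lie near or beyond the line, HMGCS1, RASEF and ANO7 far from it.

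Whether any difference was particular to 1.5 h was tested as the 1.5 h difference minus the mean of the other times. No gene passed (0 of 11921, 0%, limma, lowest adjusted p = 0.52). At an unadjusted p under 0.05 there were 918 genes, 331 higher and 587 lower at 1.5 h, with 596 given by chance. So each gene that follows is given as a value. HMGCS1, the cytosolic synthase that makes HMG-CoA for cholesterol synthesis, read 416, 141 and 322 in siControl and 700, 634 and 489 in siHNF4A. It rose by 2.17 at 1.5 h (SE 0.19, limma adjusted p = 0.00298), against 0.75 at 0 h and 0.60 at 24 h, and the low siControl value at 1.5 h made the gap. The difference between times was 1.49 (SE 0.23, limma adjusted p = 0.518), and a dimmer probe set gave 0.82 at 1.5 h. SQLE, another enzyme of that pathway, was at 1141 and 1112. RASEF, MNX1 and ANKRD1 had the same shape, each lowest of all 6 arrays in siControl at 1.5 h, at 30.5, 39.1 and 31.9, against 108, 125 and 111 in siHNF4A. They encode a Rab-like GTPase, a homeobox factor and a target of YAP.

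The dim end held the largest departures. ANO7, an anoctamin, read 80.9, 69.2 and 69.7 in siControl and 72.4, 14.6 and 80.0 in siHNF4A, and fell by 2.24 at 1.5 h (SE 0.35, limma adjusted p = 0.0128), with a difference from the other times of -2.26 (limma adjusted p = 0.545). BAIAP2-DT, a divergent transcript, fell at 1.5 h, with a difference at least as large as -2.0 (limma adjusted p = 0.0414) and was higher in siHNF4A at 0 and 24 h, by 0.74 and 0.56. Its 4 other probe sets gave -0.17 to 0.48 at 1.5 h. MYL10 fell, by a difference at least as large as -1.95, and CCDC157 rose by at least 2.02, and in both the second probe set went the other way. PLEKHG2 read 77.1, 27.8 and 65.9 in siControl and 27.8, 69.8 and 35.5 in siHNF4A, a difference of 1.33 at 1.5 h and 2.51 from the other times, and did not pass (limma adjusted p = 0.545). ANHX, CACNA1G, NALT1 and TSSK3 on the high side, and PAEP, ARHGEF17 and H3C8 on the low side, were at most 59.4 on either 1.5 h array and did not pass either.

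**Figure D5:**
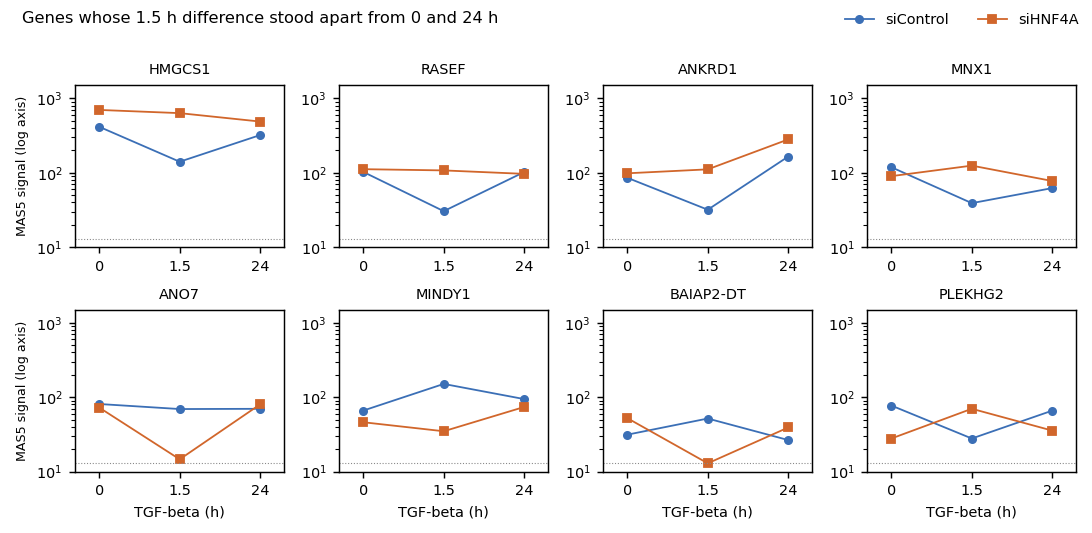
MAS5 signal (log axis) at 0, 1.5 and 24 h of TGF-beta for 8 genes whose 1.5 h difference stood apart from those at 0 and 24 h, with siControl as circles, siHNF4A as squares and 1 array per point; signals under the floor of 12.9 (dotted) are drawn on it. In the top row the siControl array at 1.5 h is the low one, and in ANO7 the siHNF4A array is.

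Which of the 2 arrays had moved was read against the 0 h array of the same siRNA. For the 101 genes that rose, siControl at 1.5 h was the lowest of its 3 times in 72 (71.3%, against 30.9% of all genes), and siHNF4A was the highest of its 3 in 33 (32.7%, against 27.4%). For the 79 that fell, siControl was the highest of its 3 in 46 (58.2%, against 33.2%) and siHNF4A the lowest in 37 (46.8%, against 28.6%). Choosing genes for a large gap at 1.5 h favours such extremes on both arrays. The median change from 0 h in the genes that rose was -0.13 in siControl and 0.18 in siHNF4A, and in those that fell 0.12 and -0.36. Among the 573 genes at 2-fold, the change from 0 h was the larger in siControl for 44.2%. Over all genes the changes from 0 to 1.5 h in the 2 arms correlated at -0.07.

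Other probe sets of the same genes gave a further reading of the same RNA. Where genes that rose had other probe sets with a 1.5 h signal above the floor, 130 of 149 (87.2%) went the same way, and of those of genes that fell 68 of 85 (80.0%), against 7484 of 11699 (64.0%) over all tested genes. Their medians were 0.63 and -0.73. Among genes only chosen by 2-fold size the shares were 129 of 174 (74.1%) for higher and 179 of 238 (75.2%) for lower.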

How the data were processed

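Biotin-labelled cRNA of total RNA was read on 6 Affymetrix arrays, 1 for each siRNA and time, per the labels' protocols. The authors deposited MAS5 intensities, linear and globally scaled, and the submitters' processing notes name MAS5 (5.0) and GCOS. With 2% trimmed from either end, each array's signals averaged 100.01. Of 54675 probe sets, 41097 had 1 gene symbol in the platform annotation, 1801 had several and 11777 had none, and only the first were named. A RefSeq gene table held the identifiers of 41043 of these, and 0 symbols changed.

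Signals were used as deposited. The floor was the median of all signals, 12.9, and genes with a mean signal above it were tested. The model, limma 3.58.1 in R 4.3.3 (lmFit, eBayes with an intensity trend), held 3 times, 1 siRNA term shared by 0 and 24 h and 1 for 1.5 h, which leaves 1 residual degree of freedom beside 9.74 prior ones. P-values were adjusted by the Benjamini-Hochberg method over all 11921 genes at a threshold of 0.05. Genes at the floor on both 0 and 24 h pairs carry no spread of their own. The fit was run on simulated data, in which 200 of the 11921 genes were changed in siHNF4A at 1.5 h alone. Normal noise was drawn independently for each array at each gene's limma variance, with no other siRNA difference. The simulated 1.5 h arrays thus vary as the others by construction, so the simulation cannot test that assumption. The 1.5 h term recovered 59.5% at 2-fold and 95.5% at 4-fold, with 15 and 24 false calls, and the difference from the other times recovered 35.5% and 90.5%, with 9 and 16 false calls.

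Genes were named by rule: the 15 highest and 15 lowest differences that passed with both signals above the floor, up to 6 each way with 1 of the signals at the floor, the 5 largest differences between times per direction, up to 4 members of each list, the 5 brightest per direction that passed, and SMAD7, SKIL, ID1, JUNB and MYC. A further gene of the rule is not reported here, and the HNF4A transcript is not analysed here. Of the list members so named, only some are printed. Beyond the rule, HERPUD1, ITGAV, LBX2-AS1, PIPOX, APOB, APOA1, APOA2, SQLE, CX3CL1 and HKDC1 were added once their values had been seen. The comparison, the lists and the tests were chosen with earlier results of these data known. Tables and figures used Python 3.11.15, numpy 2.4.6, pandas 2.3.3, scipy 1.17.1 and matplotlib 3.10.9.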

Additional observations from a re-analysis of the deposited data

How the results depend on the processing

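The number of genes that passed limma at 1.5 h, 180, was 183 after quantile normalization and 131 without probe sets ending in _x_at or _s_at. It became 270 with arrays scaled to the median (196 higher), 39 with the floor at the 40th percentile of signals (8.3), 335 at the 60th (22.6), 275 at the 75th (80.5, chosen after seeing the data), 426 with a pseudocount equal to the floor, and 0 both with probe sets averaged per gene and without the intensity trend. With no filter on dim genes 499 passed and 500 passed for 1.5 h against the other times. Of the 499, 0 were among the 180, and 484 of the 500 had no spread between 0 and 24 h. The other alternatives gave 0 for that difference. The 33 list genes that passed became 7, 59 and 66 with the floor at the 40th or 60th percentile and the pseudocount, 20 without the suffixed probe sets, 9 with no filter, and 0 with the mean of probe sets or without the trend. The 573 genes at 2-fold became 1019, 348 and 154 with the floor at the 40th, 60th and 75th percentile, 312 with the pseudocount and also with the mean of probe sets, 2243 at 1.5-fold, 77 at 3-fold, and 233 where a signal exceeded 100. The share of them with the same sign at both other times, 60.7%, moved to 46.1%, 74.4% and 87.7% with those floors, 69.2% with the pseudocount and 65.4% with the mean of probe sets. The share whose change from 0 h was larger in siControl, 44.2%, became 49.7% after quantile normalization and 48.5% with median scaling.

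Among named genes 67 passed, with CX3CL1 and HKDC1 not counted here. All 67 kept their direction under quantile normalization, median scaling, the 40th and 60th percentile floors, the pseudocount, no filter and no trend. The genes that passed still passed in 62, 67, 16, 63, 67, 0 and 0 cases. Among these settings direction could turn only under quantile normalization and median scaling. The floors, the pseudocount, no filter and no trend work on the same 2 signals and cannot reverse a sign. With the mean of probe sets 65 of 66 kept their direction, the exception being SRSF11 at 0.12. Without suffixed probe sets 43 of 47 did, and CAPRIN1 turned to 0.19, SRSF11 to 0.75 and SSR1 to -0.24. SLC4A7 was at 0 there, with both signals at or under the floor. There HMGCS1 (0.82) and RNH1 (-0.11) no longer passed. Among genes that had not passed, SMAD7 turned to 0.07, APOA1 to 0.02 and SQLE to 0.06 with median scaling, and APOB to -0.07 and -0.10 with quantile normalization and with the mean of probe sets. The causes were not tested. Taken against 0 h alone 775 genes differed by 1 or more from the 1.5 h difference (231 higher, 544 lower), against 24 h alone 888, and against both in the same direction 237. These are values with no test. The fit already compares the siRNAs within each time, and there are no replicate numbers to pair by. With 1 array a side, no array could be left out. Dim genes limit the depth of the comparison: the median SE was 0.49 where the brighter signal was under 50 and 0.15 at 1000 or more.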

Other observations

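Probe sets with no gene symbol in the annotation table were left out of the comparison above. Of these, 3993 had a mean signal above the floor, and between the 1.5 h arrays 65 were at least 2-fold higher in siHNF4A and 179 lower. At all 3 times 6 were higher and 7 lower by that size. Like the named genes, they were more often lower than higher at 2-fold on the signals as deposited. Among named genes the share higher moved from 32.1% to 45.4% after quantile normalization and 48.5% after median scaling. For the unnamed probe sets no such alternative is given.

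By length of the gene in the RefSeq annotation, tested genes were split into 4 equal sets. The set with the shortest span had a median 1.5 h difference of -0.10 and 49 genes higher and 121 lower at 2-fold. The set with the longest span had a median of 0.00, with 53 higher and 48 lower. At 0 h the medians of these sets were -0.02 and 0.00, and at 24 h -0.07 and 0.02. By GC content of the promoter window, the medians at 1.5 h ran from -0.02 in the lowest of 4 sets to -0.08 in the highest. These values were looked at after the differences were known, and no test was run on them.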
